A study of Homo sapiens with 32 samples.

Results

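Adding a p38 MAP kinase inhibitor to an EZH2 inhibitor was examined in H3K27me3 island lists of MDA-MB-231 cells, a widely used line of triple-negative breast cancer. The comparison took the 4 H3K27me3 libraries of cells given both agents for 24 h (labelled Combo, EPZ with P38i, and called combo here) against the 4 of cells given the EZH2 inhibitor alone for 24 h (treatment EPZ, written EP7 in the sample titles, and called EPZ here), which is 8 of the 32 samples of the series. The series also holds 4 H3K27me3 libraries of cells given P38i alone for 24 h and 4 of control cells with no treatment, which are set beside the results, and 16 IgG libraries, which were not used here. Combo and EPZ cells therefore share the EZH2 inhibitor and differ in P38i. Nothing in the labels ties the replicates to separate cultures, and the p-values measure the spread between these samples, which may be technical. Each file lists islands, the stretches that the authors' caller found enriched, with a start and an end and no height or score. Every value below is the length or the percent of a region inside called islands, and read depth is unknown.

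EZH2 is the catalytic subunit of Polycomb repressive complex 2, which writes H3K27me3, a mark of silenced developmental and tissue-specific genes that often forms broad domains. EZH2 inhibitors compete with the methyl donor, and the mark is then lost as histones are replaced and cells divide. p38 kinases are stress-activated MAP kinases, and p38-alpha, the product of MAPK14, can phosphorylate EZH2. The question of the comparison is which islands differ when P38i is added on top of EPZ.

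The groups separated at very few gene starts. Of 19974 protein-coding genes, 15812 had a promoter window in the RefSeq table for GRCh38.p14, each 300 bases long from 250 before the start to 50 after it. Islands touched 1310 ± 157 of these windows per combo library and 1174 ± 97.2 per EPZ library (SD, n = 4 each). The counts were 1256, 1114, 1460 and 1411 in combo replicates 1 to 4, against 1111, 1084, 1299 and 1200 in EPZ replicates 1 to 4, and the groups overlapped. A window was touched in all 4 combo libraries and in no EPZ library for 2 genes (0.0126% of windows), BSX and C3orf70, and in all 4 EPZ libraries and no combo library for 2 genes (0.0126%), PRG4 and OR1C1. The 4 windows are printed because they are the sites where the groups separated fully; they run 5′ to 3′ on the strand of the gene, with CG in capitals, the dinucleotide that is dense in the CpG islands where Polycomb binds. BSX lies on the minus strand at chr11:122981785-122982084 and C3orf70 on the minus strand at chr3:185153011-185153310. PRG4 lies on the plus strand at chr1:186296023-186296322 and OR1C1 on the minus strand at chr1:247760507-247760806.
BSX: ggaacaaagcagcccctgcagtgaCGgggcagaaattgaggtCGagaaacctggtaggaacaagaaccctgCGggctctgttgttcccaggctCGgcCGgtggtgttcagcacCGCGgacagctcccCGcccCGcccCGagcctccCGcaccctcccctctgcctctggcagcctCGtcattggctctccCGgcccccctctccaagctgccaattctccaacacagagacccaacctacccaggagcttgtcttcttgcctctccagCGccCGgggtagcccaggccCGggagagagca
C3orf70: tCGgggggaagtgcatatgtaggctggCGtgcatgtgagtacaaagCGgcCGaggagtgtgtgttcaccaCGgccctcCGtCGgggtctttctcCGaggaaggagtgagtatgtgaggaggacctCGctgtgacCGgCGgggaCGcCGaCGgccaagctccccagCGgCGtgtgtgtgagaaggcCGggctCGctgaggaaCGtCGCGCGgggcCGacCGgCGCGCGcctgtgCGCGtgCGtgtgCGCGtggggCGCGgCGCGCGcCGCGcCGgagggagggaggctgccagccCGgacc
PRG4: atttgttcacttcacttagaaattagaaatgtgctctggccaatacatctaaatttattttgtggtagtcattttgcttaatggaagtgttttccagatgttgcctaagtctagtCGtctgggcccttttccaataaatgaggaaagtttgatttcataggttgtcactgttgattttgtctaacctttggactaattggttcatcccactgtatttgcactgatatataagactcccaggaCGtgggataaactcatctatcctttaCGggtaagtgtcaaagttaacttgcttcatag
OR1C1: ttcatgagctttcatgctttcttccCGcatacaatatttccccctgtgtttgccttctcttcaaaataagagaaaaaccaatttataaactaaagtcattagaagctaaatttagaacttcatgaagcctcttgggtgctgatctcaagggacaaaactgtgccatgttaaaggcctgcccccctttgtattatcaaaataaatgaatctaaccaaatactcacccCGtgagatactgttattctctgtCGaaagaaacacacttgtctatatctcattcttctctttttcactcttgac

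The windows differed in base composition along the same line. CG, which reads the same on both strands, occurred 16 times in the BSX window and 41 times in that of C3orf70, against 3 times in each of the PRG4 and OR1C1 windows. At least as many CG as in C3orf70 were found in 8.84% of all 15812 windows, at least as many as in BSX in 64.0%, and at least 3 in 90.3%. The median was 22 over all windows, 3 over the 579 windows touched in all 8 combo and EPZ libraries and 24 over the 13778 touched in none of them. With 2 genes on each side, this is a description of those 4 windows.

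At BSX, a homeobox regulator of hypothalamic neurons, the island over the start was 3, 18.6, 13 and 13 kb wide in combo replicates 1 to 4 and covered the whole window in each. In EPZ replicates 1 to 4 the nearest island began 0.185, 0.385, 0.385 and 2.39 kb from the window, so islands were present nearby but stopped short of the start. Of the libraries that did not choose the gene, 3 of 4 P38i and 3 of 4 control libraries had the island over the window. Coverage of the BSX gene with 2.5 kb on each side was 86.7% ± 11.2 in combo and 58.6% ± 9.07 in EPZ (SD, n = 4 each; limma adjusted p = 0.883).

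At C3orf70 the window was wholly covered in combo replicates 1 and 3 and covered over 36.7% of its length in combo replicates 2 and 4. The nearest island in EPZ replicates 1 to 4 lay 0.491, 0.491, 1.21 and 1.61 kb away. No control library and 3 of 4 P38i libraries touched the window. The gene as a whole was mostly marked in both groups, at 85.2% ± 5.47 in combo and 79.2% ± 6.71 in EPZ (SD, n = 4 each; limma adjusted p = 0.883).

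PRG4 encodes lubricin, the lubricating proteoglycan of joints. The nearest island lay 3.62, 3.82, 2.42 and 27 kb from its window in combo replicates 1 to 4, whereas islands 7.2, 4.2, 3.4 and 6 kb wide covered the window in EPZ replicates 1 to 4. Gene coverage was 0, 0, 12 and 0% in combo replicates 1 to 4, against 15.6, 18, 12.1 and 18.1% in EPZ replicates 1 to 4 (limma adjusted p = 0.841). OR1C1, an olfactory receptor gene, had 0, 16.8, 0 and 0% of its gene window covered in combo, against 33.6, 24.3, 58.4 and 37.3% in EPZ (limma adjusted p = 0.701). PRG4 was touched in 2 of 4 P38i and 3 of 4 control libraries, and OR1C1 in 1 of 4 P38i and 2 of 4 control libraries. When a window had to be wholly covered, BSX alone was left on the combo side and PRG4 and OR1C1 both remained on the EPZ side.

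**Figure D1:**
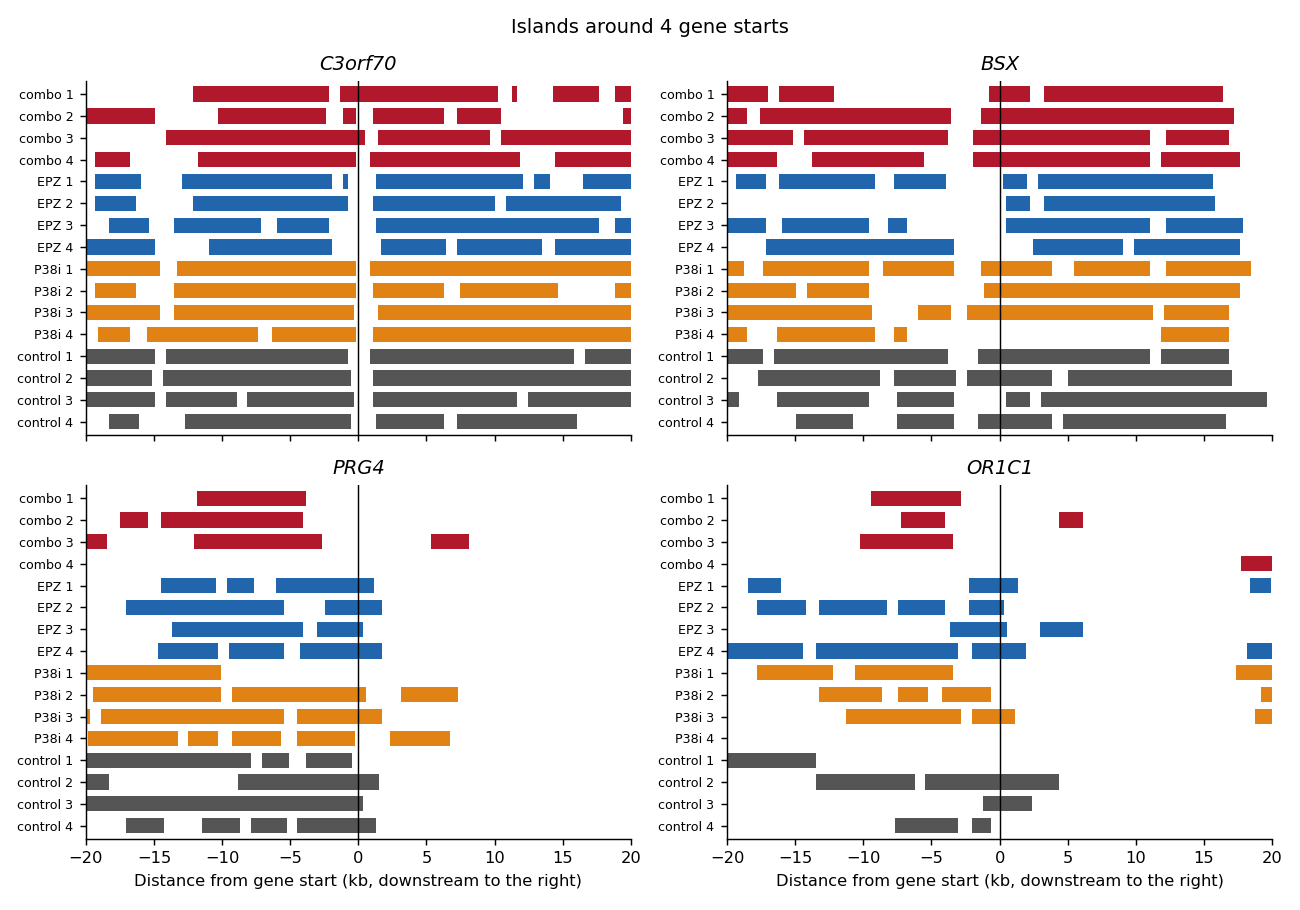
Islands within 20 kb of the starts of C3orf70, BSX, PRG4 and OR1C1. The x axis is the distance from the gene start in kb, with downstream to the right, each row is 1 library and each bar is 1 island. At BSX and C3orf70 the combo islands reach the promoter window and the EPZ islands stop short of it, and at PRG4 and OR1C1 the combo islands lie away from the start and the EPZ islands lie over it.

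Over whole libraries, no measure separated the groups. Combo libraries held 70570, 68748, 65384 and 69280 islands in replicates 1 to 4, against 85194, 69096, 62885 and 58362 in EPZ replicates 1 to 4. Combo values lay close together and inside the EPZ range, with means of 68496 ± 2211 in combo and 68884 ± 11730 in EPZ (SD, n = 4 each; 2-sided exact permutation p = 0.971). Islands covered 526, 532, 615 and 587 Mb in combo, against 474, 484, 564 and 587 Mb in EPZ, so the highest EPZ library exceeded 2 combo libraries. The difference of 38 Mb, from 565 ± 43.2 Mb in combo and 527 ± 56.4 Mb in EPZ, did not pass (exact permutation p = 0.343). Median island width was 5.05 ± 0.443 kb in combo and 4.95 ± 1.23 kb in EPZ (exact permutation p = 0.943). Islands of at least 50 kb, the broad form of the mark, summed to 61.8 ± 21.6 Mb in combo and 49.3 ± 24.9 Mb in EPZ (exact permutation p = 0.486).

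Regions were also compared by how they were called in control cells. The 41788 bins of 10 kb that were at least 50% covered in all 4 control libraries were covered over 83.9% ± 3.24 of their length in combo and 81.1% ± 4.98 in EPZ (exact permutation p = 0.40). The 196766 bins with no island in any control library were covered over 0.551% ± 0.135 in combo and 0.494% ± 0.136 in EPZ (exact permutation p = 0.514). The lowest p adjusted over the 6 exact permutation tests was 0.771, and a single test over 70 arrangements cannot go below 0.0286. Mean covered length per chromosome was higher in combo on all 23 chromosomes, from 1.04 times the EPZ mean on chromosome 14 to 1.2 times on chromosome 16, and the groups overlapped on each. Base-pair overlap between 2 libraries (the Jaccard index) had a median of 62.5% between combo libraries (60.3 to 65.5%), 59.1% between EPZ libraries (57.7 to 62.8%) and 60.2% between a combo and an EPZ library (58.4 to 64.5%).

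**Figure D2:**
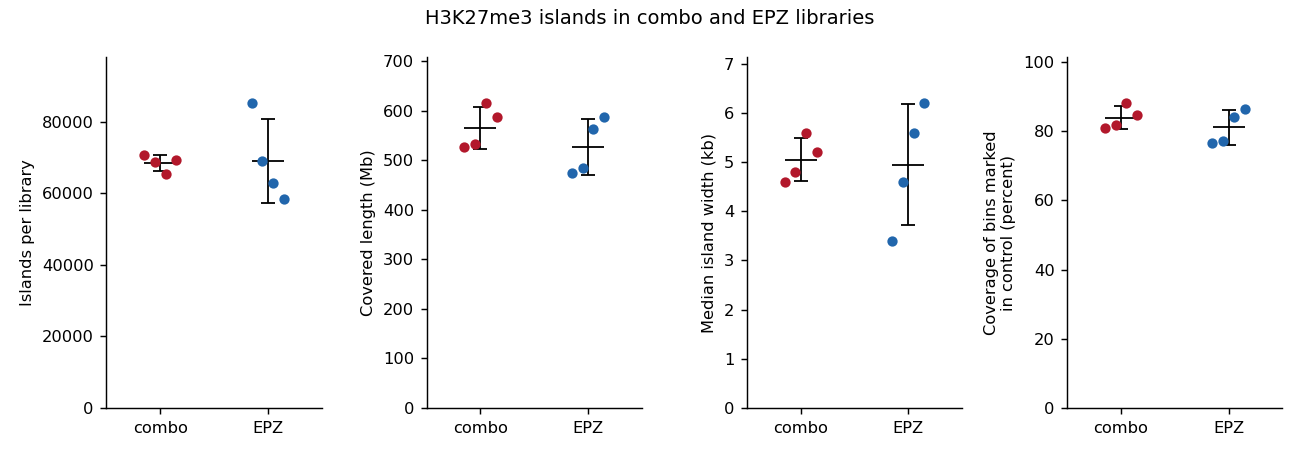
Number of islands, covered length in Mb, median island width in kb and percent coverage of the bins marked in control, for 4 combo and 4 EPZ libraries. Points are libraries and bars are the mean ± SD. The groups overlap in all 4 measures, and the 4 combo libraries lie closer together than the 4 EPZ libraries in the number of islands.

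The genes for the drug targets had almost no islands. EZH2, MAPK14, MAPK11 and MAPK12, the last 3 encoding p38 kinases, had no island within 2.5 kb of the gene in any of the 16 H3K27me3 libraries. MAPK13, which encodes p38-delta, had 2.21, 8.53, 0.110 and 2.21% of its window covered in combo replicates 1 to 4, against 0 in every EPZ library. It was at 0 in every P38i and control library too. The islands, 6.4, 4.8, 5.8 and 4.4 kb wide, began 2.08, 0.880, 2.48 and 2.08 kb past the last base of the gene (chr6:36130513-36144521) and did not overlap it. The mean coverage of MAPK13 lay below the filter of 5%, so it had no test. Of the genes used as markers of this cell line, VIM, CD44, EGFR, AXL, CAV1, MET and ITGB1 had no island in any library. Of 8 genes of other breast cell states, the progesterone receptor gene PGR stood at 95.7% ± 4.40 in combo and 95.7% ± 1.38 in EPZ, and FOXA1, a pioneer factor of luminal cells, at 55.8% ± 21.2 in combo and 45.2% ± 11.3 in EPZ. The oestrogen receptor gene ESR1 stood at 8.19% ± 2.91 in combo and 8.44% ± 5.89 in EPZ, and GATA3 and SPDEF were at 0 in all 8 libraries. Islands do not measure RNA, so the identity of the cells rests on the label.

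Gene by gene, no difference passed the test. Of the 19974 protein-coding genes, 13584 had no island within 2.5 kb in any of the 16 libraries. Mean coverage lay below 5% for 15518 genes and above 95% for 351, and the other 4105 were tested with limma. Combo was higher in 0 genes (0%) and lower in 0 genes (0%) past an adjusted p of 0.05, and the lowest adjusted p was 0.531. At an unadjusted p under 0.05 limma gave 200 genes higher in combo (4.87% of those tested) and 24 lower (0.585%), 224 in all (5.46%). The median difference was 3.02 percentage points of gene window (interquartile range -0.234 to 7.40), and 72.7% of differences were positive. The median half-width of the 95% interval of a gene's difference was 13.0 points.

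Complete separation of the groups was likewise uneven. All 4 combo libraries lay above all 4 EPZ libraries at 115 genes (2.80% of those tested) and below them at 7 (0.171%). Covered length moved with this split. With every list cut to the covered length of the shortest, keeping its widest islands, the counts were 51 and 34. These were of the 3525 genes that then passed the filter, whose median difference was 0.75 points. With covered length as a covariate in limma, the median difference over the 4105 genes was 0.65 points. At an unadjusted p under 0.05 that fit gave 150 genes higher and 109 lower, beside 200 and 24 without the covariate. The part of the library totals in the split was not tested beyond this.

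**Figure D3:**
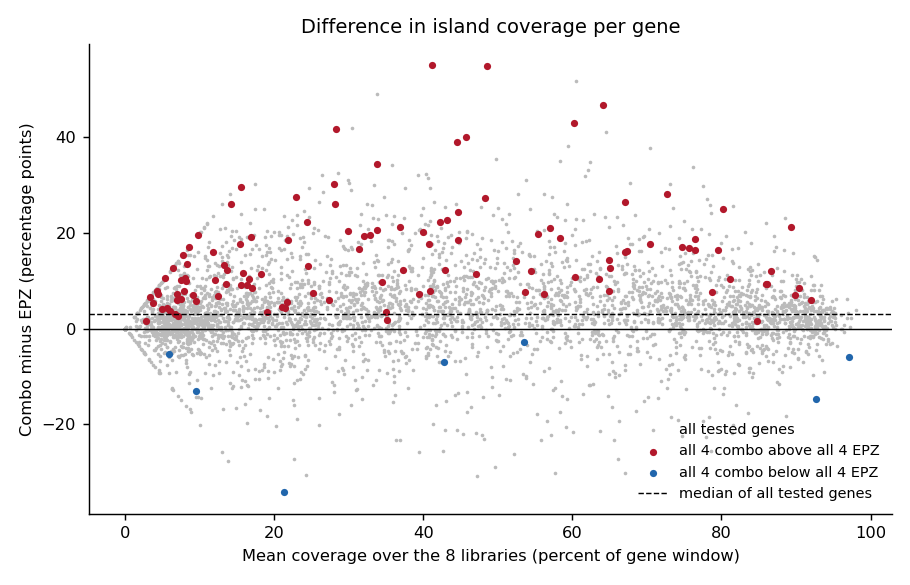
Combo minus EPZ in percentage points (y axis) against mean coverage over the 8 libraries in percent of the gene window (x axis), for 4105 tested genes. Red points are the 115 genes with all 4 combo libraries above all 4 EPZ libraries, blue points the 7 with all 4 below, and the dashed line is the median of 3.02 points.

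The 115 genes were on 21 chromosomes, and their differences ran from 1.61 to 55.0 points. Their median coverage was 41.6% in combo and 22.3% in EPZ, which chose them, and 43.8% in P38i and 36.1% in control, which did not. Over all tested genes the medians were 40.7% in combo, 35.5% in EPZ, 49.8% in P38i and 43.7% in control. The 115 were chosen in part by low EPZ values. The control mean was nearer to the combo mean at 75 of the 115 (65.2%) and nearer to the EPZ mean at 40 (34.8%), beside 53.6% and 45.4% of all tested genes. No EPZ library had an island at 5 of the 115, beside 105 of all 4105 tested genes. The 5 were PLA2G2F, ALOXE3, ITIH1, SULT1B1 and NKX6-1.

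KRTAP10-1, PLA2G2F and ALOXE3 stood at or near 0 in EPZ, and their combo libraries overlapped their control libraries. KRTAP10-1, a hair keratin-associated protein gene in a cluster of similar genes (chr21:44538981-44540195), was covered over 24.1, 30.5, 24.1 and 30.5% in combo, against 0, 0, 0 and 4.75% in EPZ. It stood at 36.9, 30.5, 40.1 and 30.5% in P38i and 30.5, 24.1, 27.3 and 0% in control. The EPZ libraries and control replicate 4 were thus the low ones, and the combo minus EPZ difference was 26.1 points (SE 5.43, limma adjusted p = 0.531). PLA2G2F, a secreted phospholipase A2 (chr1:20139323-20150381), was covered over 16.1, 14.8, 24.9 and 22.3% in combo, against 0 in all 4 EPZ libraries (difference 19.5 points, SE 4.71, limma adjusted p = 0.618). Its control libraries stood at 18.5, 4.84, 12.3 and 24.9%, overlapping the combo libraries.

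ALOXE3, the epidermal lipoxygenase of the skin barrier (chr17:8095900-8118916), showed the same order, with 19.99, 13.6, 17.1 and 17.8% in combo, against 0 in all 4 EPZ libraries (limma adjusted p = 0.618). Its P38i libraries ranged from 9.28 to 25.7% and its control libraries from 0 to 24.3%. EPHA1, a receptor tyrosine kinase for ephrins (chr7:143391129-143408856), was covered over 42.9, 38.5, 40.3 and 44.7% in combo, against 22, 20.2, 27.1 and 20.05% in EPZ (difference 19.3 points, SE 4.88, limma adjusted p = 0.618). EPHA1 was picked for a large difference relative to its spread, and its control libraries ran from 27.1 to 52.6%. DEFA6, the alpha-defensin of Paneth cells, was covered over 75.3, 75.3, 71.8 and 81.1% in combo, against 34.1, 0, 0 and 50.2% in EPZ (difference 54.8 points, SE 14.4, limma adjusted p = 0.618). EPZ and control libraries both scattered widely there, the control ones from 0 to 56.4%.

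At KIAA1755, PRAMEF20 and MS4A15 all 4 combo libraries stood above all 4 EPZ and all 4 control libraries. The P38i libraries overlapped combo at each gene through 1 library. KIAA1755 was at 13.04% in P38i replicate 3, PRAMEF20 at 16.7% in P38i replicate 4 and MS4A15 at 71.05% in P38i replicate 3. The other P38i libraries lay below all 4 combo libraries at each gene. KIAA1755 (chr20:38210503-38260735) was covered over 16.7, 8.69, 17.4 and 17.4% in combo, against 0, 0, 6.52 and 0% in EPZ, and no control library had an island there (difference from EPZ 13.4 points, SE 3.01, limma adjusted p = 0.531). PRAMEF20, a member of the PRAME family in a cluster of near-identical copies on chromosome 1, was covered over 13.9, 54.2, 29.0 and 24.3% in combo, against 0, 0, 0 and 2.84% in EPZ (limma adjusted p = 0.531). Reads that could belong to other copies make this value uncertain. MS4A15, of the membrane-spanning 4A family, was covered over 67.0, 70.2, 68.5 and 65.4% in combo, against 45.3, 44.4, 50.8 and 54.8% in EPZ, and its control libraries ran from 46.0 to 56.6% (difference from EPZ 19.0 points, SE 4.88, limma adjusted p = 0.618). AP3B2, a neuronal subunit of the AP-3 adaptor, was covered over 84.2, 84.9, 83.9 and 90.3% in combo, against 73.0, 62.2, 75.9 and 56.9% in EPZ (limma adjusted p = 0.618), and its control libraries, at 67.7 to 85.7%, overlapped both.

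ZNF117, a zinc finger gene, was covered over 13.2, 19.8, 28.0 and 11.5% in combo, against 13.2, 0, 0 and 0% in EPZ, with no island in control. Because EPZ replicate 1 lay inside the combo range, the groups overlapped. IL9, a cytokine of T cells and mast cells, was covered over 38.9, 64.5, 71.4 and 50.5% in combo, against 22.6, 10.9, 27.2 and 38.9% in EPZ, touching at 38.9%. EXPH5, a Rab27-binding protein of vesicle transport, was covered over 17.0, 17.9, 21.7 and 23% in combo, against 6.91, 7.84, 12 and 0% in EPZ. Its control libraries, at 29.3 to 35.9%, lay above both groups. These 3 genes had an adjusted p of 0.618 in limma.

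**Figure D4:**
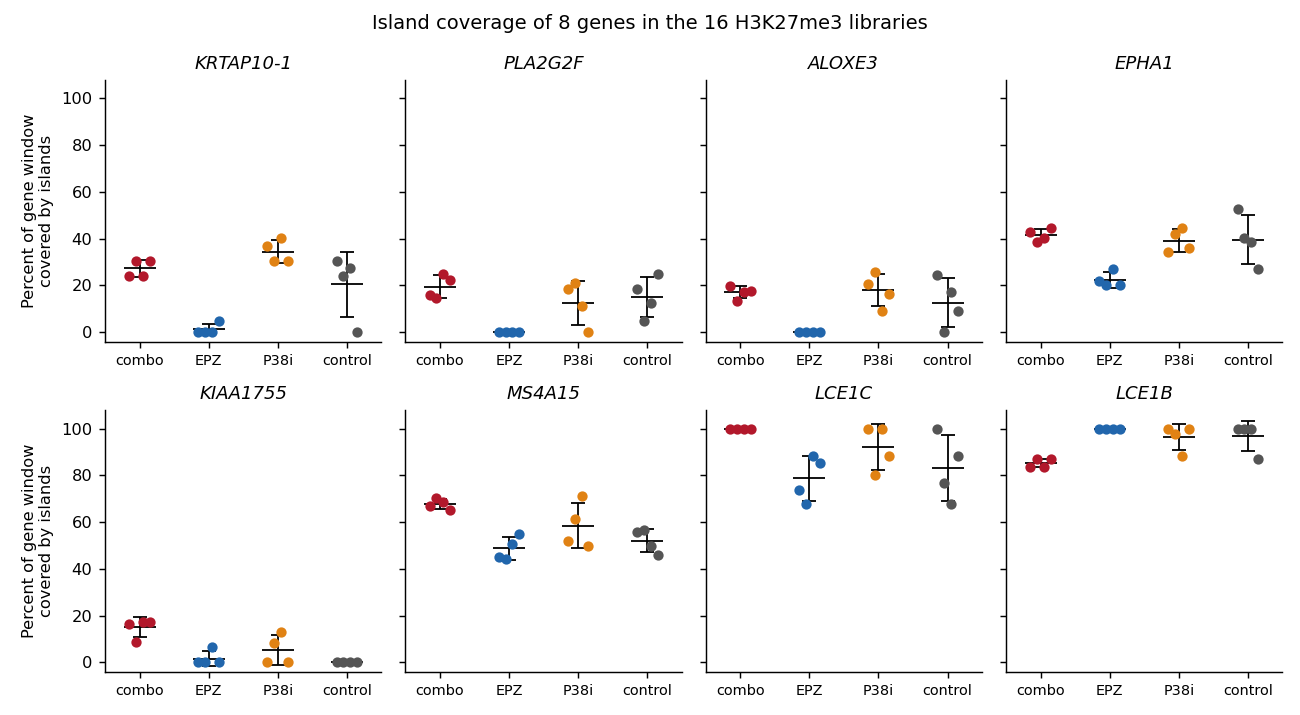
Percent of the gene window covered by islands in the 16 libraries (y axis) for 8 genes named in the text, with combo, EPZ, P38i and control side by side. Points are libraries and bars are the mean ± SD. KRTAP10-1, PLA2G2F and ALOXE3 are at or near 0 in EPZ, KIAA1755 is at 0 in control, and the neighbours LCE1C and LCE1B differ in opposite directions.

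On the other side, limma gave 24 genes lower in combo with an unadjusted p below 0.05. LCE1B, a late cornified envelope gene of the epidermis (chr1:152811971-152813108), was covered over 83.7, 87.0, 83.7 and 87.0% in combo, against 100% in all 4 EPZ libraries (difference -14.7 points, SE 3.17, limma adjusted p = 0.531). Its neighbour LCE1C (chr1:152804832-152806651) was covered over 100% in all 4 combo libraries, against 73.6, 67.7, 88.3 and 85.3% in EPZ (difference 21.3 points, SE 6.54, limma adjusted p = 0.701). The groups did not overlap at either gene, and the directions were opposite although the genes lie in 1 cluster. The other genes of complete separation on the lower side, beside LCE1B, OR1C1 and PRG4, were PLAAT5, ATP1A4, PDE5A and LOC124902071, with differences of -2.81, -7.06, -5.38 and -5.87 points. PDE5A encodes the cyclic GMP phosphodiesterase and ATP1A4 a sodium pump subunit of sperm.

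NHLH2, a neuronal basic helix-loop-helix factor, was covered over 20.5, 31.3, 17.8 and 31.3% in combo, against 28.6, 47.5, 63.8 and 54.3% in EPZ (difference -23.3 points, SE 7.72, limma adjusted p = 0.701), and the groups overlapped. H1-3, a linker histone gene, was covered over 0, 0, 0 and 36.1% in combo, against 39.6, 36.1, 36.1 and 46.5% in EPZ, so that combo replicate 4 met the lowest EPZ libraries (limma adjusted p = 0.746). ABCA8, a lipid transporter gene, was covered over 67.7, 72.5, 75.4 and 81.1% in combo, against 72.2, 90.0, 92.7 and 91.6% in EPZ (limma adjusted p = 0.814), with EPZ replicate 1 inside the combo range. The other named genes were RFPL4A, LOC124902886, the beta-defensin gene DEFB134, the olfactory receptor gene OR10Q1, TTC6 and ZNF30, whose differences were -18.4, -29.0, -21.8, -22.4, -7.65 and -6.46 points and their groups overlapped or, at RFPL4A and LOC124902886, met at 76.6 and 44.9%.

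Across gene groups, no member of any list was called, so the groups are described by counts and medians beside the median of 3.02 points over all tested genes. Developmental regulators outside HOX, the classic Polycomb targets, had 92 members, of which 39 had no island in any library and 44 were tested. Their differences were positive at 37 and negative at 7, with a median of 6.68 points. PAX1, a skeletal patterning factor, was covered over 49.4, 50.5, 65.1 and 50.7% in combo, against 28.1, 34.8, 40.4 and 38.2% in EPZ, and the groups did not overlap (limma adjusted p = 0.841). FOXA2, a factor of endoderm, was covered over 34.8, 30.6, 74.8 and 38.9% in combo, against 0, 6.22, 43.1 and 0% in EPZ (limma adjusted p = 0.841). NKX2-2, of ventral neural tube and islet cells, was covered over 44.3, 38.3, 15.5 and 9.53% in combo, against 8.33, 11.9, 11.9 and 11.9% in EPZ (limma adjusted p = 0.883). The 3 genes lie within the same stretch of chromosome 20, and FOXA2 and NKX2-2 overlapped between the groups. HOX genes had 39 members, 27 without an island, and 6 tested with a median of -0.35 points.

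Genes of the inhibited pathways gave little to compare. Of 39 genes of the p38 pathway 32 had no island and 4 were tested, with a median of 0.90 points. Of 36 Polycomb and H3K27 demethylase genes 32 had no island and 2 were tested, at 1.66 and 1.92 points. Inflammatory and AP-1 target genes, which p38 signalling induces, had 34 of 40 members without an island and 3 tested, with a median of 0. All 35 cell cycle genes and all 40 housekeeping genes were without islands in all 16 libraries.

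Over all protein-coding genes 68.0% had no island in any library. Of 32 genes of epithelial-mesenchymal transition and invasion 25 had no island and 6 were tested, with a median of 6.66 points and 5 positive. Of 30 luminal genes 18 had no island and 9 were tested (median 5.64 points, 7 positive). Among 26 genes that EZH2 is reported to silence in tumours, 16 had no island and 8 were tested (median 2.24 points, 5 positive). Of 23 matrix metalloproteinase genes 11 had no island, 6 lay above the upper filter and 3 were tested, 2 of them positive.

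Of 62 neuronal genes 42 were tested, with a median of 1.25 points. Among them DRD2, a dopamine receptor, was covered over 36.4, 48.6, 68.1 and 60.2% in combo, against 34.0, 19.9, 35.0 and 35.5% in EPZ, without overlap (limma adjusted p = 0.701). OPRK1, the kappa opioid receptor gene, was at 57.6, 42.5, 75.7 and 72.3% in combo, against 33.6, 34.9, 39.4 and 48.2% in EPZ, with overlap (limma adjusted p = 0.79). Potassium channel genes had 49 tested members of 96, with a median of 4.34 points and 37 positive. KCNH2, the hERG channel of the heart, was at 8.86, 5.21, 9.96 and 8.86% in combo, against 1.1, 0, 0 and 0% in EPZ, without overlap (limma adjusted p = 0.701), and KCNK15 and KCNJ10 differed by 49.0 and 12.3 points (limma adjusted p = 0.701 and 0.841). Of 45 haematopoietic genes 21 were tested (median 4.85 points), with CD48, a lymphocyte adhesion molecule, at 6.51 points (limma adjusted p = 0.841).

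Late cornified envelope genes had 10 tested members of 19 (median 4.31 points), keratin-associated protein genes 45 of 94 (2.74 points) and keratin genes 27 of 55 (6.03 points). Of the keratins, KRT28 and KRT84 differed by 30 and 22 points and KRT1, of the upper epidermis, by -22.7 points (limma adjusted p = 0.701, 0.706 and 0.84), and the groups overlapped at all 3. KRTAP5-10 differed by 38.2 points, with 41.1% in 1 combo and 3 EPZ libraries (limma adjusted p = 0.841). Olfactory receptor genes had 207 tested members of 390, 114 positive and 92 negative, with a median of 1.13 points; OR52N5 was at 44.3, 34.5, 49.2 and 44.3% in combo, against 0, 31.6, 0 and 19.7% in EPZ, and its control libraries ran from 52.5 to 100% (limma adjusted p = 0.701). OR4D11 differed by 15.1 points with overlap (limma adjusted p = 0.701).

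Zinc finger genes had 76 tested members of 528 (median 3.11 points). ZNF80 gave the largest positive difference of the tested genes at 55.0 points, with 51.3, 45.3, 89.1 and 89.1% in combo, against 30.2, 0, 16.1 and 8.53% in EPZ (SE 14.7, limma adjusted p = 0.618). ZNF454 was at 34.6, 36.6, 58.0 and 47.4% in combo, against 22.7, 24.5, 24.1 and 22.7% in EPZ, and the groups did not overlap at either gene (limma adjusted p = 0.701). Clustered protocadherins had 25 tested of 53 (1.85 points), beta-defensins 16 of 39 (0.84 points), chemokines and their receptors 31 of 63 (3.77 points) and interleukins and their receptors 19 of 85 (3.90 points). CCL11, the eotaxin gene, was at 0, 0, 0 and 25.8% in combo, against 10.5, 23.2, 47.9 and 23.2% in EPZ (limma adjusted p = 0.84).

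Metabolic and matrix families are read beside the 72.7% of all tested genes with a positive difference. Cytochrome P450 genes had 36 tested of 55 with 30 positive and a median of 4.6 points, and CYP8B1, the sterol 12-alpha-hydroxylase of bile acid synthesis, was at 100, 74.7, 90.8 and 100% in combo, against 65.5, 44.8, 86.2 and 65.5% in EPZ (limma adjusted p = 0.701). CYP4A22 differed by 30.5 points (limma adjusted p = 0.883). All 10 tested of 34 serpin genes were positive, with a median of 7.43 points, and SERPINA3, an acute-phase protease inhibitor, was at 41.7, 0, 30.9 and 38.1% in combo, against 0, 23.7, 16.8 and 0% in EPZ (limma adjusted p = 0.883). Of 44 collagen genes 17 were tested (median 3.99 points, 13 positive), with COL2A1 of cartilage at 14.2 points and COL5A3 at 23.5 points (limma adjusted p = 0.701 and 0.883), both with overlap. Signalling ligands and antagonists had 24 tested of 63 (median 3.54 points, 19 positive).

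Across the genome in bins of 10 kb, 1 of 91051 tested bins was called higher in combo (0.00110%) and 0 were called lower (0%). The bin, chr2:90390001-90400000, was covered over 100% in all 4 combo libraries, against 0 in all 4 EPZ libraries, and over 0 in all 8 P38i and control libraries (limma adjusted p = 0.00016). The combo islands there were 22.8, 14.8, 23 and 22.6 kb wide and all ended at position 90402400. The only other island within reach, in control replicate 1, was 2.4 kb wide and ended at the same base, and past it no library had an island for at least 1.00 Mb. Whether the genome build has a gap there was not tested. The nearest annotated gene was LOC124905368, 28.9 kb away, followed by an orphon pseudogene of the immunoglobulin kappa locus 73.9 kb away. No library differed from its group in this bin, so the spread in the fit comes from other bins and the p may be too low; a fit of the combo and EPZ libraries alone called 0 bins, and so did bins of 5 kb.

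Bins with complete separation were again mostly higher in combo. Of 123626 bins with an island in any library, 1762 lay higher in all 4 combo libraries than in all 4 EPZ libraries (1.43%) and 390 lower (0.315%). Bins covered over at least 50% in each combo library and in no EPZ library were counted as gained, and the opposite as lost, which held for 183 bins (0.148%) and 27 bins (0.0218%). With lists of equal covered length the counts were 92 gained and 75 lost, of 110946 bins with an island. Gained bins had a median coverage of 70.5% in combo and 25% in EPZ, and of 62% in P38i and 53% in control, whose libraries did not choose them. Of the 183, 39 (21.3%) were marked in all 4 control libraries and 19 (10.4%) in none, beside 33.8% and 34.8% of all bins with an island. Lost bins had medians of 26.5% in combo, 65% in EPZ, 60% in P38i and 55% in control. Over all bins with an island the medians were 42.5% in combo, 36.5% in EPZ, 51.5% in P38i and 47% in control. Protein-coding genes overlapped 72 gained bins (39.3%) and 7 lost bins (25.9%), beside 37.4% of all bins with an island.

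Runs of adjacent separated bins were short. The longest on the higher side were 30 kb, and 1 of the 5 contained the called bin. At chr1:73830001-73860000, with no protein-coding gene, coverage was 69.3, 68.7, 64.0 and 94.0% in combo, against 11.3, 0, 0 and 0% in EPZ. Inside CELF4, a neuronal RNA-binding protein gene (chr18:37390001-37420000), it was 48.0, 32.7, 84.7 and 68.7% in combo, against 12, 10.7, 8 and 11.3% in EPZ. The 2 others lay at chr9:86760001-86790000 without a gene, with means of 64.5% in combo and 32.2% in EPZ, and at chr19:20050001-20080000 in the zinc finger gene ZNF90, with 46.3% in combo and 19.2% in EPZ. The longest on the lower side were 20 kb. At chr14:49050001-49070000 coverage was 9, 26, 35 and 18% in combo, against 65, 67, 74 and 70% in EPZ, and the P38i and control means, 16.0 and 14.2%, lay near the combo libraries. Part of MALRD1 (chr10:19120001-19140000) averaged 0.750% in combo and 32.0% in EPZ, part of the glycosyltransferase gene ALG14 (chr1:95070001-95090000) 0% in combo and 21.2% in EPZ, and the gene-free stretches chr3:164130001-164150000 and chr12:83190001-83210000 5.75 and 55% in combo, against 47.5 and 89% in EPZ.

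In windows of 1 Mb, chosen after the data were seen, all 4 combo libraries lay above all 4 EPZ libraries in 41 of 2751 windows (1.49%) and below them in 8 (0.291%). The widest difference was on chromosome 3 from 133000001 to 134000000, a stretch with the transferrin gene TF and the prostaglandin transporter gene SLCO2A1, where coverage was 39.8, 41.5, 46.4 and 47.7% in combo, against 29.5, 32.2, 37.2 and 37.5% in EPZ. The control libraries there ran from 34.1 to 50.6% and overlapped both groups. Next came chromosome 2 from 7000001 to 8000000, with RNF144A, at 27.4% ± 2.92 in combo and 18.1% ± 5.89 in EPZ (SD, n = 4 each), and chromosome 1 from 33000001 to 34000000, with CSMD2 and the Polycomb subunit gene PHC2, at 29.8% ± 2.79 in combo and 21.7% ± 2.82 in EPZ. The windows on the lower side were sparsely covered, with EPZ means of 0.34 to 3.83%.

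Whether P38i acted differently with and without EPZ was tested by the interaction, the difference of combo from EPZ less that of P38i from control. Of 4105 genes, 2 were called (0.0487%), both lower. At an unadjusted p under 0.05 limma gave 141 of the 4105 genes for the interaction, beside 224 (5.46%) for combo against EPZ. The interaction draws on 4 groups and has a larger error, so the 2 counts are not ranked. LOC107987433 (chr5:1285397-1289245) was covered over 0% in all 4 combo libraries, against 20.3, 31.6, 18.1 and 0% in EPZ, and over 33.9, 29.4, 36.2 and 22.6% in P38i, against 0 in all 4 control libraries, an interaction of -48.0 points (limma adjusted p = 0.0212). ZNF853, a zinc finger gene, had no island in any combo, EPZ or control library and was covered over 27.8, 32.2, 21.9 and 16.1% in P38i, an interaction of -24.5 points (limma adjusted p = 0.0212). It passed the filter of 5% mean coverage only through the P38i libraries, so its call is not independent of the filter. At ZNF853 the P38i libraries alone had islands, whereas at LOC107987433 EPZ replicate 2 lay above P38i replicates 2 and 4. With several groups at 0 throughout, the spread that the fit shares is small and these p-values may be too low. With lists of equal covered length neither gene passed the filter, so neither was tested there.

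The genes called in P38i against control were then read in the other pair of groups, which shares no library with it. P38i was higher at 12 genes (0.292%). None of the 12 was called in combo against EPZ, but neither was any other of the 4105 tested genes, so this does not set them apart. Their adjusted p there ran from 0.664 to 1.0 in limma and their differences from -17.5 to 19.6 points. ZNF853 and DEFB108B were at 0 in every combo and EPZ library, so no difference could show. Like these, ALOX15, SPX, LINGO4, TAC3 and ANKRD35 passed the lower filter only through their P38i libraries. DEFB108B, a beta-defensin gene, was covered over 39.95 to 54.7% in P38i and had no island in any combo or EPZ library. SPX, the spexin peptide gene, was covered over 27.5 to 53.6% in P38i, at 17.2, 0, 0 and 0% in combo and at 0 in all 4 EPZ libraries. KRT27, a hair follicle keratin, was covered over 71.6 to 100% in P38i, against 38.1 to 56.7% in control, but over 39.1, 38.1, 47.4 and 45.5% in combo, against 34.4, 43.7, 45.5 and 36.2% in EPZ. LACRT, a tear glycoprotein gene, had the largest positive value of the 12, with 62.6, 33.0, 60.4 and 58.2% in combo, against 42.8, 31.8, 29.6 and 31.8% in EPZ (19.6 points, SE 10.7, limma adjusted p = 0.883).

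The others of the 12 gave small or scattered values. TAC3, the neurokinin B gene, was at 0 in all 4 combo libraries, against 0, 0, 27.8 and 0% in EPZ, and ALOX15, a lipoxygenase gene, was at 2.40, 0, 7.47 and 0% in combo, against 0 in all 4 EPZ libraries. CCR9, a receptor that guides T cells to the gut, was at 26.6, 19.9, 13.9 and 22% in combo, against 8.14, 17.2, 9.95 and 29.3% in EPZ. LINGO4, ANKRD35 and LOC124903734 differed by 10.4, 2.47 and 14.3 points. The selection of these genes used P38i and control libraries, so their interaction is not independent of it. Over all 4105 genes, P38i minus control and combo minus EPZ had a Pearson r of 0.202 and a Spearman rho of 0.253, given as a description across genes, which share libraries and are not replicates.

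**Figure D5:**
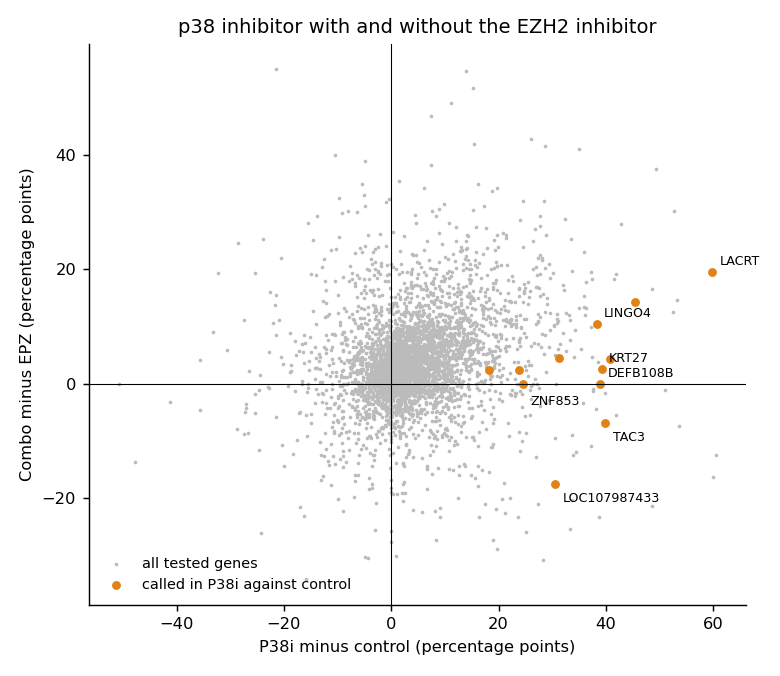
Combo minus EPZ (y axis) against P38i minus control (x axis), both in percentage points of the gene window, for 4105 tested genes. Orange points are the 12 genes called in P38i against control; they lie far to the right and between -17.5 and 19.6 points on the y axis.

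Genes that had moved against control were also read in both groups. These comparisons share the control libraries and 1 of the groups, so the values are a description. At the 125 genes lower in EPZ than in control, median coverage was 20.5% in combo, 13.6% in EPZ, 44.4% in P38i and 50.3% in control, and combo was above EPZ at 96 of them (76.8%, beside 72.7% of all tested genes); the set was chosen in part by low EPZ values. At the 59 genes lower in combo than in control median coverage was 13.8% in combo, 13.8% in EPZ, 38.6% in P38i and 48.2% in control. Combo was below EPZ at 39 of them and above it at 17 (28.8%, beside 72.7% of all tested genes), and this set was chosen in part by low combo values. At the 5 genes higher in EPZ than in control it was 43.1% in combo, 34.8% in EPZ, 18.7% in P38i and 7.95% in control. At the 10 genes higher in combo than in control it was 43.8% in combo, 33.4% in EPZ, 15.6% in P38i and 6.57% in control.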

How the data were processed

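H3K27me3 ChIPmentation libraries (4 each of combo, EPZ, P38i and control) were compared through their island lists. The deposited lists give island bounds in base pairs on hg38, the build in the submitters' processing notes, and no other unit, score or count. Those notes name SICER, which calls islands, and bedtools 2.28.0, SAMtools 1.2, Picard, Bowtie2 2.3.4.1, Trim Galore with cutadapt, and FastQC. What order and settings were used is not known from them. Bounds fell on windows of 200 bp, and broad, fragmented or merged calling changes island numbers and widths without a change in the mark.

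From these lists the percent of each protein-coding gene with 2.5 kb on each side, and of each 10-kb bin of chromosomes 1 to 22 and X, inside islands was computed (matplotlib 3.10.9, scipy 1.17.1, pandas 2.3.3 and numpy 2.4.6 under Python 3.11.15). Genes and bins with a mean of 5 to 95% over 16 libraries entered 1 fit of limma 3.58.1 under R 4.3.3, robust and with a trend, p-values being adjusted over all of them for each contrast (Benjamini-Hochberg, threshold 0.05). The fit was tested on simulated data, with 50 of 4105 genes shifted in combo by each amount. It called 40 and 52% of the genes shifted by 20 and -20 points, and 78 and 88% of those shifted by 40 and -40 points. It also called 5 genes that were not shifted. Whether these rates hold for the combo and EPZ libraries themselves was not tested. Library totals were compared by 2-sided exact permutation tests, adjusted together. Genes and promoter windows came from RefSeq GRCh38.p14, 15812 of 19974 genes having a window.

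Named genes were the 12 with the largest positive and the 12 with the largest negative moderated statistic, the first where windows overlapped; in each list with at least 3 tested members, up to 3 members with the largest statistic at an unadjusted p under 0.05; the targets; the genes called in P38i against control; and, for bins, the 5 longest runs in each direction. PLAAT5, ATP1A4, PDE5A, LOC124902071, TF, SLCO2A1, RNF144A, CSMD2, PHC2, ITIH1, SULT1B1, NKX6-1, BSX, C3orf70 and PRG4 were named after their values were seen. The comparison, its members and the 29 gene lists and families were chosen with earlier results of these data known. UTY matched no gene used here, and 1 marker gene is not reported here.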

Additional observations from a re-analysis of the deposited data

Results flagged for a closer look

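Combo and EPZ libraries were looked at in 180 groups of 4, of which 140 were for 70 named genes and 40 for library totals, promoter counts, runs of bins and 1-Mb windows. In 32 of them 1 library stood apart from the other 3 by Dixon's criterion. Chance flags about 1 in 20 groups of continuous values, a rate that does not apply where the other 3 are equal, as in 21 of the 32, and most of the genes were picked by their statistic.

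In 16 of these groups the other 3 libraries were at 0. In combo the libraries apart were OR1C1 in replicate 2 at 16.8%, H1-3, CCL11 and ANKRD35 in replicate 4 at 36.1, 25.8 and 9.88%, SPX in replicate 1 at 17.2%, PRG4 in replicate 3 at 12% and the run in MALRD1 in replicate 1 at 3%. In EPZ they were KRTAP10-1 and PRAMEF20 in replicate 4 at 4.75 and 2.84%, KIAA1755 and TAC3 in replicate 3 at 6.52 and 27.8%, ZNF117, KRT84, KCNH2 and LOC124903734 in replicate 1 at 13.2, 23.1, 1.1 and 15.1%, and the run on chromosome 1 from 73830001 in replicate 1 at 11.3%.

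Of the combo libraries with others above 0, KIAA1755 stood apart in replicate 2 at 8.69% (others 16.7 to 17.4%), AP3B2 in replicate 4 at 90.3% (others 83.9 to 84.9%), PAX1 in replicate 3 at 65.1% (others 49.4 to 50.7%), LACRT in replicate 2 at 33.0% (others 58.2 to 62.6%), PGR in replicate 1 at 89.2% (others 97.3 to 98.5%), OR4D11 in replicate 4 at 99.8% (others 100%), LOC124902071 in replicate 3 at 93.1% (others 94.5%) and the run on chromosome 2 from 90380001 in replicate 2 at 49.3% (others 74.7%). Of the EPZ libraries, ABCA8 stood apart in replicate 1 at 72.2% (others 90.0 to 92.7%), FOXA2 and KCNK15 in replicate 3 at 43.1 and 33.6% (others up to 6.22 and 3.61%), NKX2-2, KRTAP5-10 and LACRT in replicate 1 at 8.33, 37.9 and 42.8% (others 11.9%, 41.1% and up to 31.8%), DRD2 in replicate 2 at 19.9% (others 34.0 to 35.5%) and ATP1A4 in replicate 4 at 43.6% (others 47.1 to 47.6%).

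The difference made by P38i differed with and without EPZ at ZNF853 (interaction -24.5 points) and LOC107987433 (-48.0 points), with a limma adjusted p of 0.0212 for each. P38i libraries had islands at both genes in 4 of 4, and combo and control libraries were at 0 in 4 of 4. EPZ libraries were at 0 at ZNF853 and at 20.3, 31.6, 18.1 and 0% at LOC107987433. The part of the groups at 0 in the small spread was not tested.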

How the results depend on the processing

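Read depth is unknown, and 4 libraries a group leave a median half-width of 13.0 points for a gene's difference. The 0 gene calls of combo against EPZ were 0 in all other settings except a fit of the 2 groups (3 genes: KRTAP10-1, ALOXE3 and LCE1B) and without EPZ replicate 4 (2) or control replicate 4 (1). With the replicate block 0 genes and 1 bin were called, and the interaction count was 1. Whether replicate numbers pair the libraries was not settled. In their departures from the group means, same-numbered combo and EPZ libraries correlated at 0.0093, -0.016, 0.016 and -0.11. These are not correlations of coverage itself, since a combo and an EPZ library had a base-pair overlap (Jaccard index) of 58.4 to 64.5%. Covered length, however, was lower in replicates 1 and 2 than in replicates 3 and 4 of both groups. The exact sign-flip p of covered length was 0.125 in that pairing, the smallest that 4 pairs allow, with all 4 differences positive. The 2 interaction calls became 1 with islands of at least 2 kb, 0 with lists of equal length (where neither gene passed the filter), 5 with no filter and 0 to 4 without 1 library; 0 were called without EPZ replicate 1 or 3, P38i replicate 1, combo replicate 2 or 3, or control replicate 2, and 4 without control replicate 3.

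The 1 called bin became 0 with bins of 5 kb or a fit of the 2 groups, 10 with no filter and 1 to 9 without 1 library (9 without EPZ replicate 3). Gained bins, 183, became 389 with bins of 5 kb, 27 with bins of 50 kb, 92 with lists of equal length and 267 to 495 without 1 library. Lost bins, 27, became 47 at 25% coverage, 87 with bins of 5 kb, 0 with bins of 50 kb, 75 with lists of equal length and 46 to 119 without 1 library. Bins with an island numbered 228229 at 5 kb, 31735 at 50 kb and 110946 with lists of equal length, against 123626 in the main setting. Genes without overlap became 51 higher and 34 lower, of 3525 tested, with lists of equal length. They became 141 to 373 higher and 12 to 43 lower without 1 library. Leaving out a library makes separation easier by construction; the gene count was 373 without combo replicate 2 and 293 without EPZ replicate 3. These settings and those of the promoters were added after the data were seen. Promoters touched in all combo libraries only, 2, became 1 when the whole window had to be covered and 3 to 13 without 1 library; those in all EPZ libraries only became 2 to 6 without 1 library.

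The difference in number of islands turned to 2560 with islands of at least 2 kb and ran from -3896 to 5048 without 1 library. Without 1 library, that of median width ran from -0.417 to 0.517 kb. Coverage of bins empty in control turned to -0.0631 points with lists of equal length (exact permutation p = 0.257). None of these passed in any setting. Among single genes, the differences of ALOX15, SPX and LINGO4 became 0 with no flank, those of SPX, ANKRD35 and TAC3 ran from 0 to 5.72, 0 to 3.29 and -9.25 to 0 points without 1 library, that of KRT27 became -1.49 points with covered length as a covariate, and those of LOC124903734 and CCR9 became -3.76 and -0.678 points with lists of equal length. The causes were not tested.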
